A study of Homo sapiens with 24 samples.

Results

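The response of P493 cells to 4 h of release was compared with and without MST-312, gene by gene, as a difference of differences. P493 is a human B cell line with a MYC transgene that tetracycline shuts off. MST-312 is a small-molecule telomerase inhibitor. The comparison used 12 of the 24 arrays of the series, 3 in each of 4 groups: MST-312 cells at 4 h and at 0 h of release, and untreated cells at 4 h and at 0 h. MST-312 cells had spent 48 h in MST-312 and tetracycline, and were then moved to fresh medium without tetracycline that still held MST-312. The labels do not state whether the untreated cells were also held in tetracycline, so any difference in how they were held and released cannot be told apart from the inhibitor. The replicates are numbered in the labels but are not stated to be separate cultures, and the p-values therefore measure the spread between arrays, which may be technical. The interaction given below is the log2 change from 0 h to 4 h in MST-312 cells minus the same change in untreated cells. It was estimated for 10246 genes, all those that were detected in at least 1 group of the series, and the members were all of these genes.

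MYC is a transcription factor that raises ribosome production, nucleotide synthesis and cell cycle entry in B cells, and P493 cells without it stop growing. When tetracycline is washed out, the transgene is switched on again and the cells resume growth over the following hours. An interaction asks whether that early response differs when the inhibitor is present. It can be positive because a gene rose more, or fell less, with MST-312, so both release changes are given beside it.

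The arrays were alike in quality. On the 12 arrays, 16585 to 17557 probes were detected (35% to 37.1% of all probes), the mean raw intensity was 526.7 to 642.6, and arrays of 1 group correlated at 0.9893 or more. The B cell markers MS4A1, CD79A, CD79B and CD74 were detected on all 12 arrays, while the probe for PAX5 was undetected on all 12. Of 6 T cell markers none was detected on every array, and CD3E, LCK and CD8A were detected on none. The monocyte markers CD14, LYZ, ITGAM and CD68 were detected on all 12 arrays. The summed intensity of the 4 was 1398 to 1634 in MST-312 cells at 4 h and 1886 to 2252 at 0 h, against 1288 to 1797 in untreated cells at 4 h and 3551 to 3831 at 0 h. Interactions of LYZ, a secreted lysozyme, and ITGAM, an integrin chain, were 1.25 ± 0.21 and 0.97 ± 0.28 (log2 ± SE, adjusted p = 0.000208 and 0.0147). The other 4 of 6 tested monocyte markers did not pass, with 0.01 for CD14, 0.37 for CD68, 0.22 for CST3 and -0.65 for FCGR3A. Of 4 tested T cell markers only CD2 passed (1.04, adjusted p = 0.00584). CD2 was detected on 5 of the 12 arrays, so the size of this value depends on the background. It ran from 0.52 to 1.2 over the alternative processings. Of 5 epithelial and fibroblast markers only CDH1, the adhesion protein E-cadherin, passed (-1.64, adjusted p = 3.11e-05). The CDH1 value ran from -1.78 to -0.87 over the alternative processings. Among the 5 markers, 3 were undetected on every array of at least 1 of the 4 groups. The summed intensity of EPCAM and COL1A1 was 627 to 757 in MST-312 cells at 4 h and 428 to 481 at 0 h, against 134 to 192 in untreated cells at 4 h and 144 to 157 at 0 h. That of the plasma cell genes PRDM1, XBP1 and SDC1 was 7769 to 8129 in MST-312 cells at 4 h and 7206 to 8460 at 0 h, against 2429 to 2727 in untreated cells at 4 h and 1709 to 1898 at 0 h. Their part in the results was not tested. Fewer cells of a type and less RNA per cell cannot be told apart in these bulk samples.

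MYC itself rose in both treatments. Its brightest probe read 14.99, 14.88 and 14.83 (log2 intensity) in MST-312 cells at 4 h and 13.87, 13.83 and 13.76 at 0 h. In untreated cells the readings were 14.90, 14.96 and 14.68 at 4 h and 14.17, 13.97 and 14.002 at 0 h. In each treatment all 4 h arrays lay above all 0 h arrays. The release change was 1.08 with MST-312 and 0.79 in untreated cells (adjusted p = 8.87e-08 and 2.51e-06). The interaction of MYC was 0.28 ± 0.15 with a 95% interval from -0.02 to 0.59 (adjusted p = 0.178), and it did not pass. A second probe gave 0.20. Whether either probe reads transgene transcripts is not stated in the files. TERT, the catalytic subunit of telomerase, was undetected on all 12 arrays and was not tested.

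Among the 10246 genes, the interaction was positive for 1152 (11.2%) and negative for 1173 (11.4%) at an adjusted p under 0.05 (limma, Benjamini-Hochberg over all genes). Interactions of at least 1 log2 unit passed for 247 genes (2.41%) in the positive and 233 genes (2.27%) in the negative direction. The median over all genes was -0.01. The split depends on the scaling of the arrays: with each array scaled to its median in place of quantile normalization, the median over all genes moved to -0.135, and 530 interactions were positive and 1260 negative. Release alone changed 1852 genes upward (18.1%) and 1848 downward (18%) in MST-312 cells, and 2343 upward (22.9%) and 2262 downward (22.1%) in untreated cells.

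**Figure D1:**
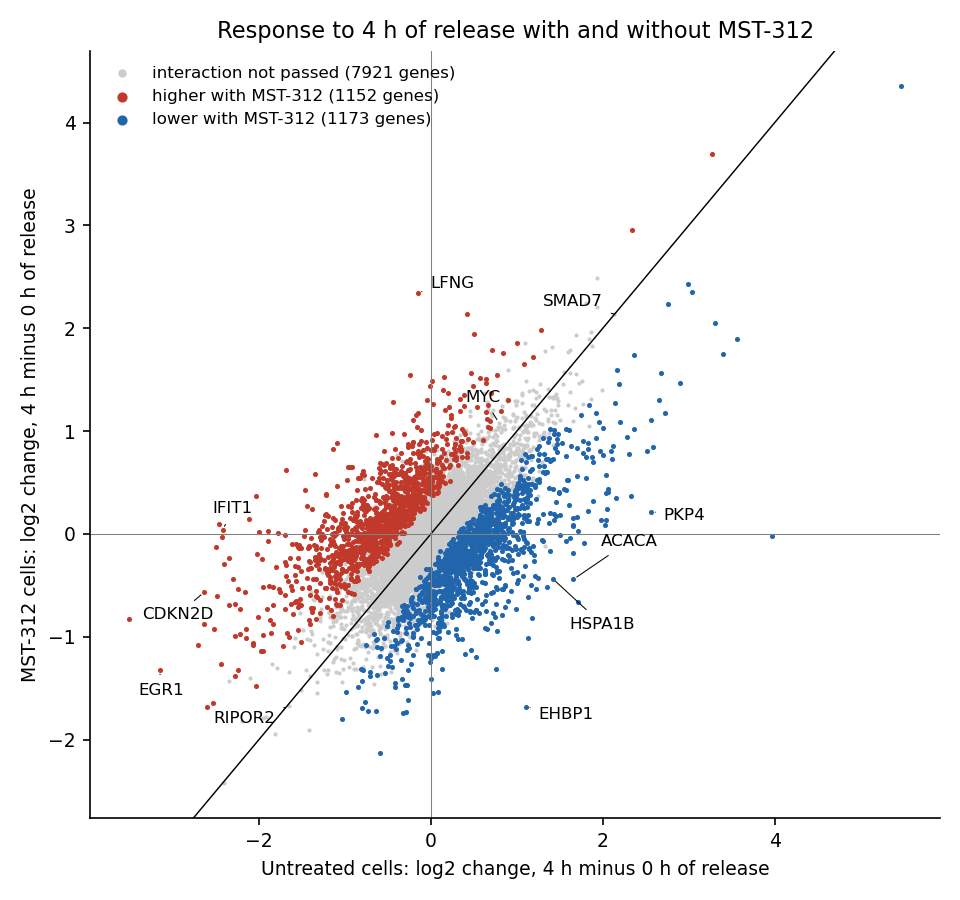
Log2 change from 0 h to 4 h of release in MST-312 cells (vertical axis) against untreated cells (horizontal axis), 1 point per gene. The diagonal marks equal changes. The 1152 genes with a positive interaction (red) lie above it and the 1173 with a negative interaction (blue) below it. Of these, 567 red and 482 blue genes had a passing change in untreated cells and none in MST-312 cells.

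The plot of both release changes shows how the interactions came about. Of the 1152 positive interactions, 567 (49.2%) belonged to genes whose change with MST-312 did not pass the test and that fell in untreated cells. Another 232 (20.1%) rose with MST-312 without a passing change in untreated cells, 158 (13.7%) fell in both treatments, and 119 (10.3%) rose with MST-312 and fell in untreated cells. Of the 1173 negative interactions, 482 (41.1%) belonged to genes with no passing change in MST-312 cells that rose in untreated cells. A further 303 (25.8%) fell with MST-312 without a passing change in untreated cells, 179 (15.3%) rose in both treatments, and 112 (9.55%) fell with MST-312 and rose in untreated cells. The size of the release change was smaller with MST-312 for 69% of the positive and 62.2% of the negative interactions, beside 56.9% of all genes tested.

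The positive interactions included 143 genes, and the negative ones 159, that were undetected on every array of at least 1 of the 4 groups. For these the fitted value depends on the background, and they are named below only with a bound. The largest values named were therefore taken from genes detected on at least 1 array of each group.

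Interferon-stimulated genes formed the group with the largest positive shift among the lists examined. They encode antiviral proteins that are switched on by interferon receptors through STAT and IRF transcription factors. Of 37 tested, 30 (81.1%) had a positive interaction and none a negative one, beside 11.2% and 11.4% of all genes. The median was 1.06 against -0.01 over all genes. It was 1.135 with the groups in which 7 of the genes were undetected set to the detection floor. The median release change of the list was -0.21 with MST-312 and -1.31 in untreated cells. In MST-312 cells 12 of the 37 fell and 2 rose, beside 18% and 18.1% of all genes. In untreated cells 36 fell and none rose, beside 22.1% and 22.9%. These genes were already low in MST-312 cells before release: the median difference between MST-312 and untreated cells was -1.10 at 4 h and -2.19 at 0 h. For 29 of the 30 genes the distance between the treatments was smaller at 4 h than at 0 h, and for 1 it changed sign. Among all positive interactions the distance was smaller at 4 h for 41.5% and changed sign for 31.6%.

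IFIT1, whose product binds foreign RNA, read 7.66, 7.61 and 7.65 in MST-312 cells at 4 h and 7.51, 7.70 and 7.60 at 0 h. In untreated cells IFIT1 read 9.79, 9.75 and 9.87 at 4 h and 12.09, 12.39 and 12.20 at 0 h. The MST-312 arrays of both times overlapped and lay below every untreated array, and the untreated arrays dropped between the times without overlap. The interaction of IFIT1 was 2.46 ± 0.13 (adjusted p = 1.01e-10), and a second, dimmer probe gave 2.197. MX1, an antiviral GTPase, stood at 9.26, 9.08 and 8.93 in MST-312 cells at 4 h and 8.64, 8.80 and 8.71 at 0 h, against 12.48, 12.14 and 12.33 in untreated cells at 4 h and 14.37, 14.41 and 14.27 at 0 h. Here the release raised the level with MST-312 by 0.37 (adjusted p = 0.0375) while it lowered the untreated level by 2.03 log2 units. IFIT3, a partner of IFIT1, had an interaction of 2.38 ± 0.21. OASL, an interferon-induced protein related to the oligoadenylate synthetases, was undetected on all MST-312 arrays at its brightest probe, and its level in MST-312 cells at 0 h was at least 4.54-fold lower than in untreated cells. Its interaction cannot be sized.

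The promoters of several of these genes carry the element that STAT and IRF factors bind. The motif, GAAA followed by any 2 bases and a second GAAA, was searched on both strands in the 250 bases before the RefSeq start (GRCh38.p14). It was found in 18 of the 30 list members with a promoter in the table (60%), against 839 of 27305 promoters (3.07%). Shown are stretches of the members with the largest interactions among those that hold the motif. They were picked for holding it and do not stand for the whole list. The strand is that of the gene, and the motif is in capitals. Both copies in IFIT1 and that in IFIT3 and IFI44 are read on the opposite strand.
IFIT1, chr10:89392495-89392554, plus strand: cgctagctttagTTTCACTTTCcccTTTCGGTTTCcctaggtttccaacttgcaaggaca
IFIT3, chr10:89327850-89327909, plus strand: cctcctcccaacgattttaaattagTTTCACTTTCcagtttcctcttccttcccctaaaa
IFI44, chr1:78649729-78649788, plus strand: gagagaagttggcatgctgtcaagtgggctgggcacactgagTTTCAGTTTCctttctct
OAS3, chr12:112938414-112938473, plus strand: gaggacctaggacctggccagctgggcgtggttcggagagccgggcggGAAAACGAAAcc

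Regulators and receptors of interferon signalling were not shifted in their median. Of 22 STAT and IRF regulators and receptors tested, 5 (22.7%) had a positive interaction and none had a negative one. Of all genes 11.2% and 11.4% did. The median of the list was 0.00. IRF7, the factor that amplifies interferon responses, had an interaction of 1.41 ± 0.21 (adjusted p = 6.23e-05), with a change of -0.24 with MST-312 that did not pass and a fall of 1.64 log2 units in untreated cells. IRF5 had an interaction of 1.06 ± 0.18 (adjusted p = 0.000249), but its other probe gave 0.36, which did not pass. IFNGR2, a chain of the interferon gamma receptor, and the kinase TYK2 had 0.47 and 0.55, and neither passed with median scaling (adjusted p = 0.147 and 0.0526).

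**Figure D2:**
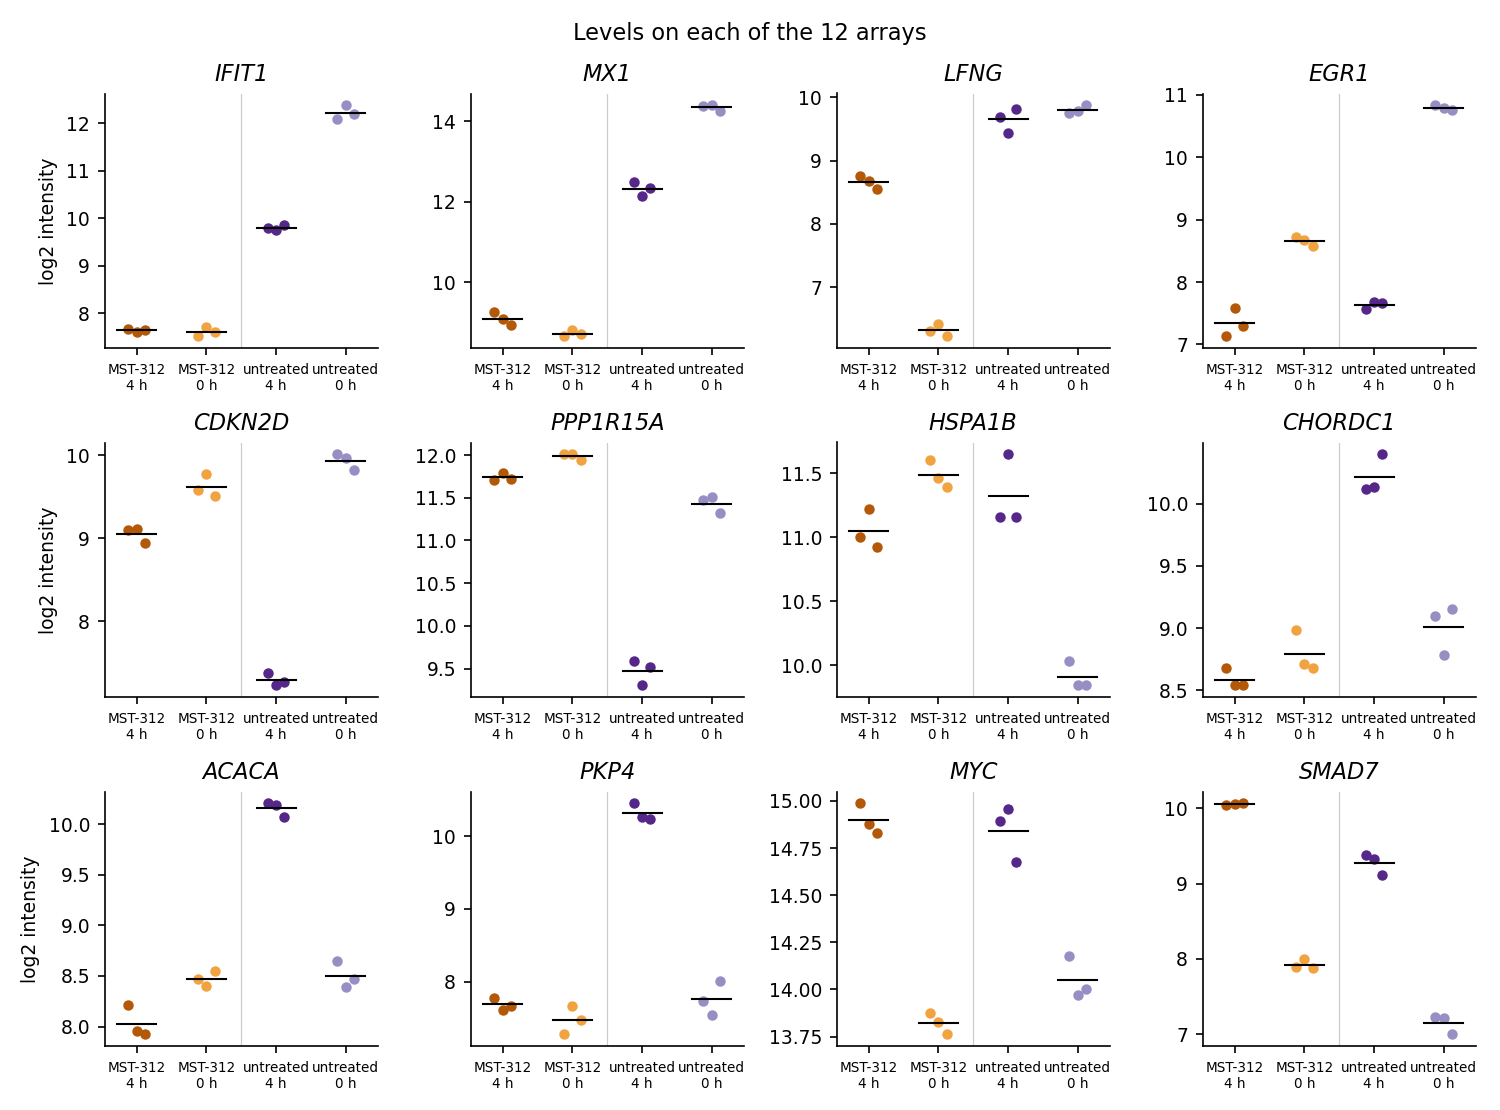
Log2 intensity of 12 genes on each of the 12 arrays (points) with the group means (bars), for MST-312 and untreated cells at 4 h and 0 h of release. The vertical axes differ between genes and do not start at 0. IFIT1 and MX1 are low on all MST-312 arrays, CDKN2D and PPP1R15A fall mainly in untreated cells, HSPA1B, CHORDC1, ACACA and PKP4 rise in untreated cells, and SMAD7 rises by 2.14 with MST-312 and 2.13 in untreated cells.

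Genes of antigen presentation showed a smaller shift of the same sign. Of 23 tested genes of MHC class I and II presentation, 10 (43.5%) had a positive interaction and none a negative one. Of all genes 11.2% and 11.4% did. The median of the list was 0.32 (0.17 with median scaling). In MST-312 cells 5 fell and 2 rose, beside 18% and 18.1% of all genes. In untreated cells 12 fell and 1 rose, beside 22.1% and 22.9%. TAP2, which with TAP1 pumps peptides into the ER, had an interaction of 0.84 ± 0.11 (adjusted p = 1.3e-05). TAP2 changed by 0.00 with MST-312 and fell by 0.84 log2 units in untreated cells, and its other probe gave an interaction of 0.43. TAP1 fell in both treatments, by 0.35 with MST-312 and by 1.15 in untreated cells, which gave 0.80 ± 0.13 (adjusted p = 0.000139). All 22 of these genes that differed between the treatments at 0 h were lower with MST-312, beside 31.7% of all genes lower and 27.7% higher at that time.

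Immediate-early genes, which growth factor and antigen receptor signals induce within minutes, had positive interactions for 14 of 26 and a negative one for 1. These were 53.8% and 3.85%, beside 11.2% and 11.4% of all genes. The median was 0.49, and 0.222 without the detection filter. In MST-312 cells 6 fell and 6 rose, beside 18% and 18.1% of all genes. In untreated cells 13 fell and 3 rose, beside 22.1% and 22.9%. EGR1, a zinc finger factor of this class, read 7.13, 7.59 and 7.30 in MST-312 cells at 4 h and 8.72, 8.67 and 8.58 at 0 h. The untreated arrays read 7.56, 7.68 and 7.67 at 4 h and 10.84, 10.79 and 10.75 at 0 h. EGR1 thus fell in both treatments to levels that overlapped at 4 h, from unequal levels at 0 h, and its interaction was 1.83 ± 0.16 (adjusted p = 1.5e-07). DUSP5 and DUSP2, phosphatases that switch off MAP kinases, differed in how they reached their interactions of 1.88 ± 0.11 and 1.62 ± 0.17 (adjusted p = 2.55e-10 and 8.96e-07). DUSP5 fell by 0.60 log2 units with MST-312 and by 2.49 in untreated cells, while DUSP2 changed by 0.24 with MST-312, which did not pass, and fell by 1.38 in untreated cells. In both cases MST-312 cells were higher than untreated cells at 4 h and lower at 0 h.

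Among NF-kB subunits, inhibitors and targets, 10 of 25 (40%) had a positive and 2 (8%) a negative interaction, beside 11.2% and 11.4% of all genes. The median was 0.31, but 0.107 with median scaling and 0.542 over the genes detected on all 12 arrays. CCL3, a chemokine, read 8.40, 8.47 and 8.25 in MST-312 cells at 4 h and 8.25, 8.54 and 8.24 at 0 h, and in untreated cells 7.22, 6.90 and 6.97 at 4 h and 8.93, 8.90 and 8.95 at 0 h. The MST-312 arrays of both times overlapped, and the untreated arrays ended below them after starting above. CCL3 had an interaction of 1.93 ± 0.20 (adjusted p = 8.01e-07). LTA, the cytokine lymphotoxin alpha, rose by 0.65 with MST-312 and fell by 0.96 log2 units in untreated cells, an interaction of 1.61 ± 0.20. CD40, the receptor for T cell help, likewise rose by 0.50 with MST-312 and fell by 0.60 log2 units in untreated cells. BCL3, a nuclear IkB protein that works with NF-kB, rose by 0.36 with MST-312 and fell by 0.67 log2 units in untreated cells.

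B cell identity genes also shifted. Of 25 tested genes of the B cell receptor and B cell identity, 9 (36%) had a positive and 2 (8%) a negative interaction. Of all genes 11.2% and 11.4% did. The median of the list was 0.31, and 0.138 without MST-312 4 h replicate 2. EBF1, a transcription factor that specifies the B lineage, read 8.80, 8.98 and 8.83 in MST-312 cells at 4 h and 9.57, 9.53 and 9.55 at 0 h. In untreated cells EBF1 read 7.16, 7.24 and 7.18 at 4 h and 9.51, 9.55 and 9.37 at 0 h. The treatments were separate at 4 h, where MST-312 cells were higher by 1.68 log2 units, and overlapped at 0 h. The interaction of EBF1 was 1.61 ± 0.11 (adjusted p = 2.66e-09). SPIB, an ETS factor of B cells, rose by 0.58 with MST-312 and fell by 0.77 log2 units in untreated cells (interaction 1.35 ± 0.14). In the other direction stood BACH2, a repressor of plasma cell differentiation, and PRDM1, which drives that differentiation. BACH2 had -1.34 ± 0.38 (adjusted p = 0.0138), with -2.91 at its other probe, and PRDM1 -0.75 ± 0.25 (adjusted p = 0.0393). The call of PRDM1 was lost without any 1 of 7 arrays, with adjusted p up to 0.123 without untreated 0 h replicate 2.

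Genes of the integrated stress response, which ATF4 controls when translation is held back, had positive interactions for 8 of 19 (42.1%) and no negative one. Of all genes 11.2% were positive and 11.4% negative. The median of the list was 0.33, and 0.156 as the mean over probes. At 4 h 16 of the 19 were higher with MST-312 than untreated and at 0 h 15, beside 26.5% and 27.7% of all genes. The median difference of the list was 1.52 at 4 h and 1.17 at 0 h. PPP1R15A, the subunit that directs dephosphorylation of eIF2 alpha, read 11.71, 11.79 and 11.72 in MST-312 cells at 4 h and 12.01, 12.01 and 11.94 at 0 h. Untreated cells gave 9.59, 9.30 and 9.51 at 4 h and 11.48, 11.50 and 11.32 at 0 h. MST-312 arrays were above untreated arrays at both times, and the distance was wider at 4 h (2.27) than at 0 h (0.55). The interaction of PPP1R15A was 1.72 ± 0.12 (adjusted p = 5.7e-09). TRIB3, a pseudokinase induced by ATF4, rose by 0.50 with MST-312 and fell by 0.40 log2 units in untreated cells. ATF4 itself had 0.59 ± 0.13 (adjusted p = 0.00188), and its other probes gave 1.13 and 0.22.

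The BCL2 family, which sets the threshold for apoptosis, had 5 positive (31.2%) and no negative interactions among 16 tested. Of all genes 11.2% were positive and 11.4% negative. The median of the family was 0.32, and 0.179 with median scaling. BIK and BCL2L11 (BIM) promote apoptosis, while MCL1 prevents it. BIK had 1.14 ± 0.13, BCL2L11 0.92 ± 0.23 and MCL1 0.91 ± 0.14 (adjusted p = 3.91e-06, 0.00577 and 8.67e-05). BCL2L11 rose by 0.79 with MST-312 and changed by -0.13 in untreated cells, which did not pass. With median scaling BCL2L11 did not pass (adjusted p = 0.0566), and its other probes gave 0.70 and 1.58. MCL1, by contrast, changed by -0.19 with MST-312, which did not pass, and fell by 1.11 log2 units in untreated cells. Its other probe gave an interaction of 0.29.

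Of 20 CDK inhibitors, FOXO genes and other genes of resting cells, 5 (25%) had a positive and 3 (15%) a negative interaction. Of all genes 11.2% and 11.4% did. The median of the list was 0.18, and 0.007 with median scaling. CDKN2D, an inhibitor of CDK4 and CDK6, read 9.09, 9.11 and 8.94 in MST-312 cells at 4 h and 9.58, 9.77 and 9.51 at 0 h. The untreated arrays read 7.38, 7.23 and 7.27 at 4 h and 10.01, 9.97 and 9.82 at 0 h. CDKN2D fell in both treatments, with the 4 h arrays of the treatments far apart, and its interaction was 2.07 ± 0.14 (adjusted p = 5.14e-09). TXNIP, an arrestin-like protein that restrains glucose uptake, and its relative ARRDC3 each had 1.38 (SE 0.16 and 0.18). However, the other probe of ARRDC3 gave 0.50, which did not pass. TXNIP fell by 0.50 with MST-312 and by 1.88 log2 units in untreated cells.

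**Figure D3:**
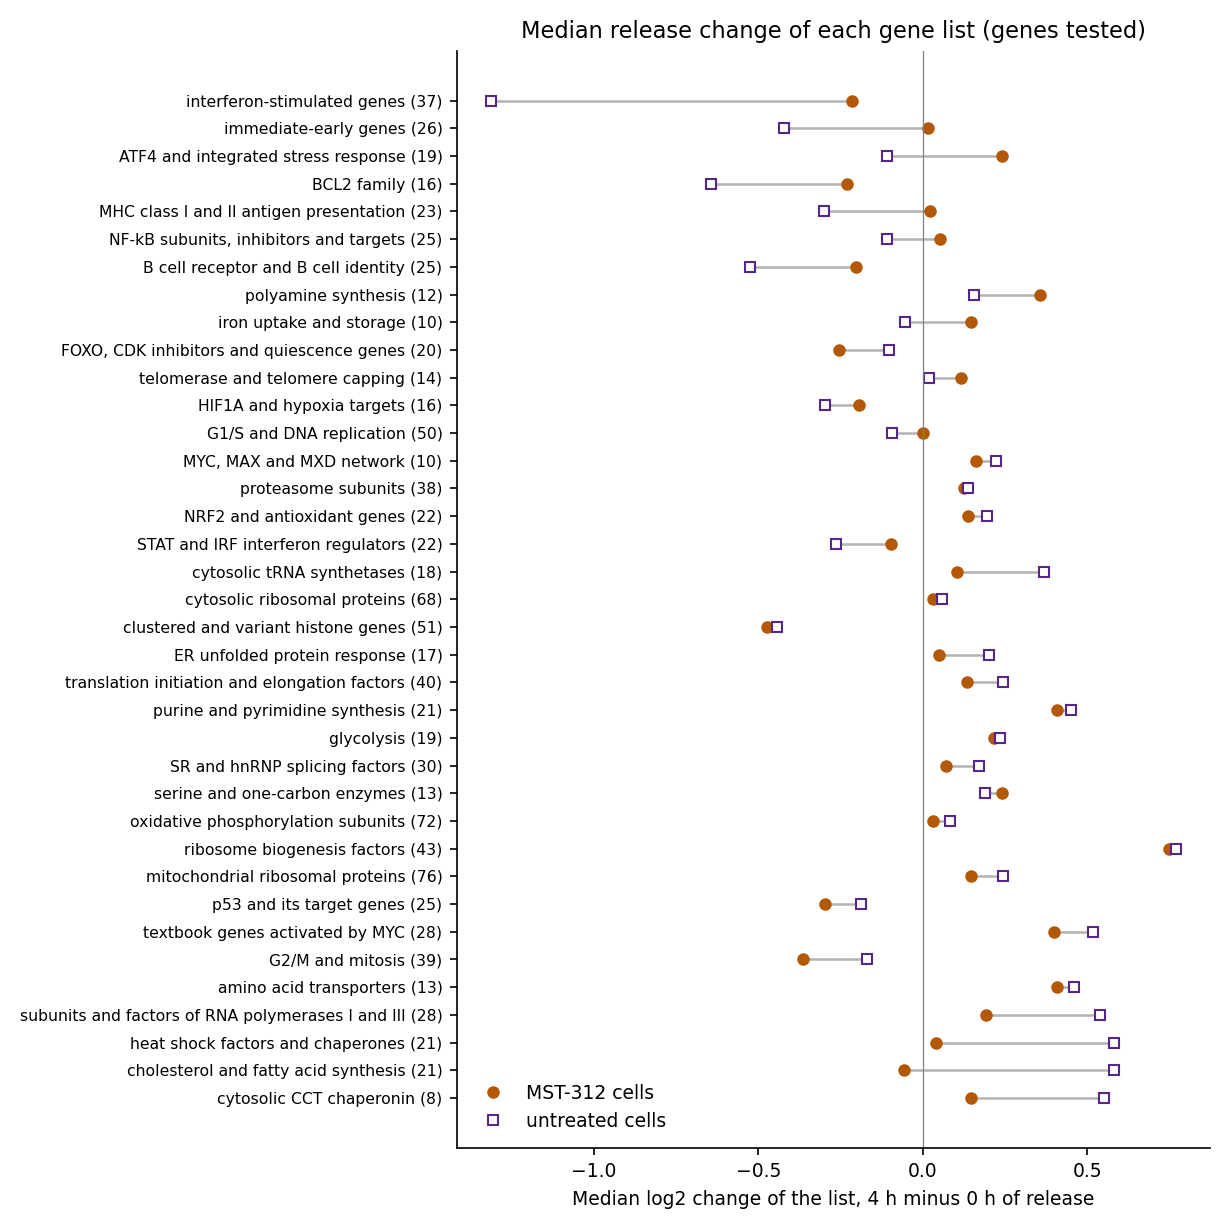
Median log2 release change of each gene list in MST-312 cells (filled circles) and untreated cells (open squares), with the number of genes tested in brackets. Lists are ordered by their median interaction. Interferon-stimulated genes have medians of -0.21 and -1.31, ribosome biogenesis factors 0.75 and 0.77, and cholesterol and fatty acid genes -0.06 and 0.58.

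Chaperones and cochaperones of the heat shock response were among the lists shifted in the negative direction. Chaperones fold new and damaged proteins, and heat shock factor 1 induces many of them, but was itself not among the genes tested. Of 21 tested members, 12 (57.1%) had a negative interaction and none a positive one, beside 11.4% and 11.2% of all genes. The median was -0.43. In MST-312 cells 2 rose and 5 fell, beside 18.1% and 18% of all genes. In untreated cells 15 rose and 1 fell, beside 22.9% and 22.1%. HSPA1B, an inducible HSP70, read 11.003, 11.22 and 10.92 in MST-312 cells at 4 h and 11.60, 11.46 and 11.39 at 0 h. Untreated arrays read 11.16, 11.65 and 11.16 at 4 h and 10.03, 9.84 and 9.85 at 0 h. HSPA1B was high in MST-312 cells before release and fell, while untreated cells started lower and reached the same range. The interaction of HSPA1B was -1.85 ± 0.20 (adjusted p = 1.18e-06). The probe named for the near-identical gene HSPA1A gave -0.27, which did not pass (adjusted p = 0.702). Whether each probe reads only its own gene is not stated in the files.

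CHORDC1, a co-chaperone of HSP90, showed the other form. It read 8.68, 8.54 and 8.54 in MST-312 cells at 4 h and 8.99, 8.72 and 8.68 at 0 h, against 10.12, 10.14 and 10.40 in untreated cells at 4 h and 9.10, 8.78 and 9.16 at 0 h. Levels overlapped between the treatments at 0 h, and the untreated 4 h arrays stood apart from all the others. CHORDC1 had an interaction of -1.41 ± 0.16 (adjusted p = 1.85e-06). HSPH1, an HSP110 chaperone, fell by 0.49 with MST-312 and rose by 0.86 in untreated cells (-1.35 ± 0.12). DNAJB1, a partner of HSP70, changed by -0.14 with MST-312, which did not pass, and rose by 1.14 in untreated cells (-1.27 ± 0.16). For 8 of the 12 genes with a negative interaction the distance between the treatments was wider at 4 h, beside 37.4% of all negative interactions.

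The heat shock element, taken as GAA, TTC and GAA with any 2 bases between neighbours and searched in the same way on both strands, was present in 4 of 20 promoters of the list (20%), against 120 of 27305 (0.439%). Stretches of CHORDC1, HSPA8 and DNAJB6 are shown because they hold the element and their negative interactions passed. HSPA1B, HSPH1 and DNAJB1 each had no match or no promoter to search. The interaction of HSPA8, the constitutive HSP70, was -0.62 and that of DNAJB6 -0.43. The capitals mark the element, with overlapping matches joined in CHORDC1.
CHORDC1, chr11:90223064-90223123, minus strand: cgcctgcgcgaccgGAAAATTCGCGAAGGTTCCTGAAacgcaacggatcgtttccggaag
HSPA8, chr11:123062156-123062215, minus strand: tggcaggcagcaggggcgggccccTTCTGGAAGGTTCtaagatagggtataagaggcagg
DNAJB6, chr7:157336849-157336908, plus strand: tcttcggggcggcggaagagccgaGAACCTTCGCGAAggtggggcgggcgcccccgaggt

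The CCT chaperonin folds actin, tubulin and other new proteins. Of its 8 subunits 3 (37.5%) had a negative interaction and none a positive one, beside 11.4% and 11.2% of all genes. The median was -0.44. In MST-312 cells 1 of 8 rose, and in untreated cells 7 of 8, beside 18.1% and 22.9% of all genes. CCT4 had -0.77 ± 0.16 (adjusted p = 0.0012). Negative calls of CCT5 and CCT6A were lost when only the 12 arrays were fitted (adjusted p = 0.0598 and 0.0518). Both were also lost without single arrays, with adjusted p up to 0.0696 for CCT5 (without untreated 0 h replicate 2) and 0.0872 for CCT6A (without MST-312 0 h replicate 3).

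Cholesterol and fatty acid synthesis behaved alike in sign. Of 21 tested genes 8 (38.1%) had a negative interaction and none a positive one, beside 11.4% and 11.2% of all genes. The median was -0.44, and -0.284 without the detection filter. In MST-312 cells 2 rose and 3 fell, beside 18.1% and 18% of all genes. In untreated cells 13 rose and 1 fell, beside 22.9% and 22.1%. ACACA, the acetyl-CoA carboxylase that commits carbon to fatty acids, read 8.21, 7.96 and 7.92 in MST-312 cells at 4 h and 8.47, 8.40 and 8.55 at 0 h. In untreated cells ACACA stood at 10.21, 10.19 and 10.07 at 4 h and 8.65, 8.39 and 8.46 at 0 h. The groups overlapped at 0 h, and release moved them in opposite directions. ACACA fell by 0.44 with MST-312 and rose by 1.66 in untreated cells (interaction -2.10 ± 0.13, adjusted p = 5.26e-10), and a second probe gave -1.98. MSMO1, a sterol oxidase, and SCD, a fatty acid desaturase, were instead already higher with MST-312 at 0 h, by 2.06 and 0.88, and had interactions of -1.34 ± 0.15 and -0.95 ± 0.11. The other probes of MSMO1 gave -2.10 and 0.46.

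**Figure D4:**
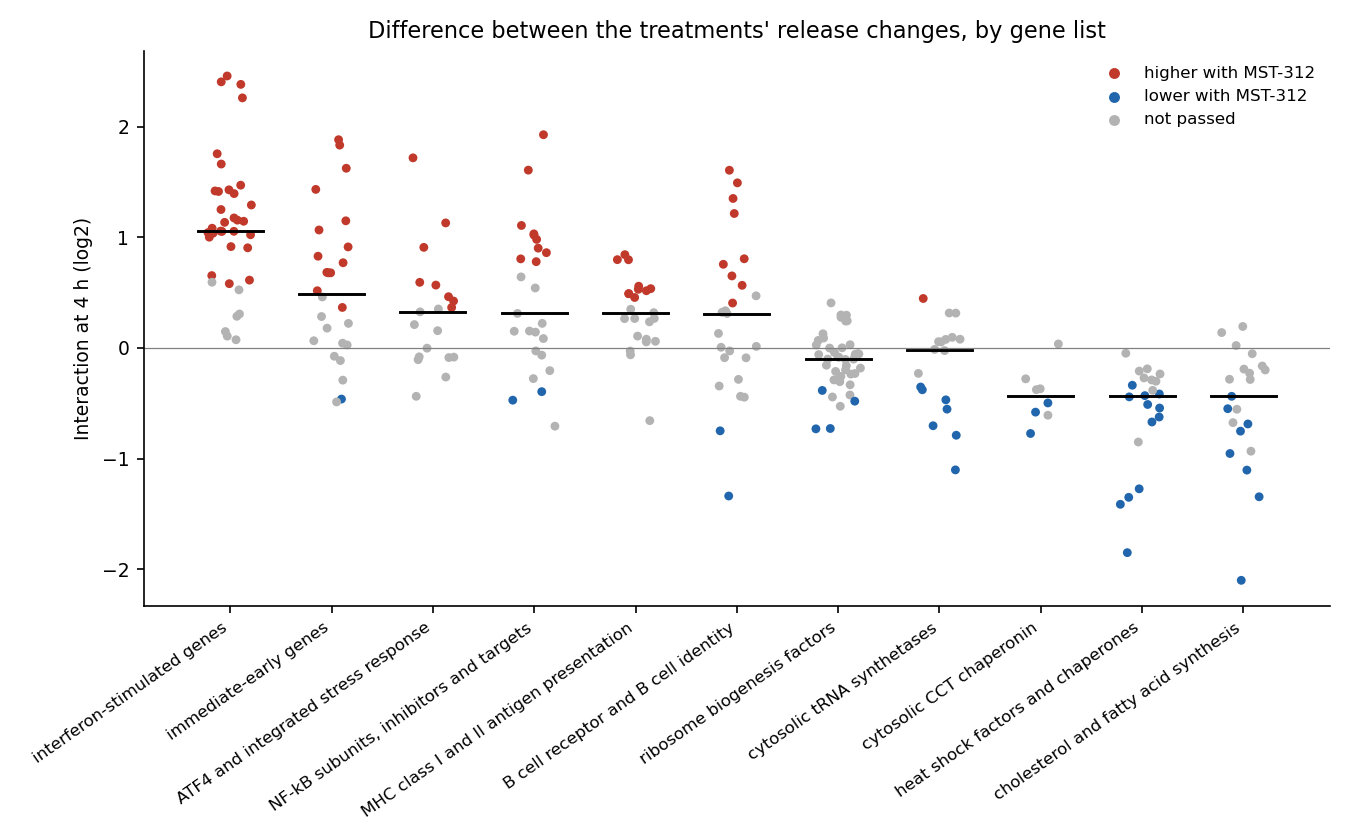
Interaction at 4 h (log2) of every tested member of 11 gene lists, 1 point per gene, with the list's median as a bar. Red and blue points passed in the positive and the negative direction and grey points did not pass. Of the interferon-stimulated genes 30 of 37 are red, and of the heat shock genes 12 of 21 are blue.

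Protein synthesis genes gave a mixed account. Ribosome biogenesis factors, which MYC is known to induce, rose in both treatments. With MST-312 36 of 43 rose (median 0.75) and in untreated cells 40 of 43 (median 0.77), beside 18.1% and 22.9% of all genes. For these factors, 4 interactions (9.3%) were negative and none was positive, beside 11.4% and 11.2% of all genes. The median interaction was -0.10 (-0.249 with median scaling). WDR75 had -0.73 ± 0.17 (adjusted p = 0.00306), with a change of 0.04 with MST-312 that did not pass and a rise of 0.77 in untreated cells. PPAN had -0.73 ± 0.24 (adjusted p = 0.0331) although it rose strongly in both treatments, by 1.45 with MST-312 and by 2.19 in untreated cells. With the replicate block within each time the adjusted p of PPAN was 0.0567, and without 1 array it reached 0.0929 (untreated 4 h replicate 1). The E-box CACGTG, the site MYC binds, was in 4 of 35 promoters of these factors (11.4%), against 6.49% of all promoters. That share was near the one of the heat shock list, 2 of 20 promoters (10%). Among interferon-stimulated genes the E-box was in 2 of 30 promoters (6.67%).

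Cytosolic tRNA synthetases, which load amino acids onto tRNA, had 7 negative interactions (38.9%) and 1 positive (5.56%) among 18. Of all genes 11.4% were negative and 11.2% positive. The median of the list was only -0.02 and turned to 0.06 with cyclic loess scaling. IARS1, for isoleucine, had -1.10 ± 0.13 (-0.26 at its other probe) and TARS1, for threonine, -0.79 ± 0.13. Both rose in untreated cells, by 0.95 and 0.58, and were higher with MST-312 already at 0 h. Genes of the ER unfolded protein response had 7 negative (41.2%) and 1 positive (5.88%) among 17 (median -0.04, and 0.018 without untreated 4 h replicate 3). Among them DNAJB9, an ER co-chaperone, was higher with MST-312 by 2.18 at 4 h and by 2.80 at 0 h (interaction -0.62 ± 0.10).

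Mitochondrial ribosomal proteins had 12 negative and 3 positive interactions among 76 (median -0.11, and -0.253 with median scaling), a share of negative calls of 15.8% beside 11.4% of all genes. Textbook genes activated by MYC were split evenly, with 5 positive and 5 negative among 28 (17.9% each). Among them CCND2, a G1 cyclin, had 0.95 ± 0.12 and PPAT, the first enzyme of purine synthesis, -0.51 ± 0.14. Cytosolic ribosomal proteins had 1 negative and no positive call among 68. Oxidative phosphorylation subunits had 1 positive and 3 negative calls among 72. Genes of G1/S and DNA replication had 6 positive (12%) and 3 negative (6%) among 50, and genes of G2/M and mitosis 2 positive (5.13%) and 6 negative (15.4%) among 39. Beside the 11.2% and 11.4% of all genes, the positive share of the G1/S genes was close to the background. AURKA, a mitotic kinase, fell by 0.95 with MST-312 and changed by 0.10 in untreated cells, which did not pass (interaction -1.04 ± 0.19, adjusted p = 0.000417). Most of the G2/M genes were lower with MST-312 at both times, 30 of 39 at 4 h and 30 of 39 at 0 h, beside 32.9% and 31.7% of all genes at those times.

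Outside the lists, LFNG, a glycosyltransferase that modifies Notch receptors, had the largest positive interaction by the naming rule. LFNG read 8.76, 8.67 and 8.56 in MST-312 cells at 4 h and 6.31, 6.42 and 6.22 at 0 h, against 9.69, 9.44 and 9.83 in untreated cells at 4 h and 9.75, 9.79 and 9.88 at 0 h. Here it was the MST-312 cells that moved: they rose by 2.35, and the untreated arrays of both times overlapped. The interaction of LFNG was 2.50 ± 0.14 (adjusted p = 2.55e-10). FGFRL1, a receptor of the FGF receptor family, had 2.31 ± 0.17, although its other probe gave 0.84. Further positive values were 2.12 for PALM, a membrane-associated phosphoprotein, 2.02 for GDPD5, 1.90 for ESAM, an adhesion protein, and 1.83 for GNG7, a G protein subunit.

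By the naming rule, negative interactions were led by EHBP1, a protein of vesicle transport. EHBP1 read 5.96, 5.79 and 5.55 in MST-312 cells at 4 h, where 1 of 3 arrays detected it, and 7.47, 7.43 and 7.45 at 0 h. Untreated cells gave 9.21, 9.43 and 9.12 at 4 h and 8.14, 8.14 and 8.16 at 0 h. The levels were already separate at 0 h, lower with MST-312, and moved further apart. The interaction of EHBP1 was -2.79 ± 0.24 (adjusted p = 6.78e-08). The MST-312 readings at 4 h lay near the lowest detected signal of those arrays (5.88 to 5.9), so its size depends on the background. Over the alternative processings it ran from -2.88 to -1.76. PKP4, a plakophilin of cell junctions, read 7.77, 7.61 and 7.67 in MST-312 cells at 4 h and 7.27, 7.66 and 7.47 at 0 h, and in untreated cells 10.46, 10.27 and 10.24 at 4 h and 7.74, 7.54 and 8.00 at 0 h. Only the untreated 4 h arrays of PKP4 stood apart, and the interaction was -2.35 ± 0.17 (adjusted p = 9.31e-09). MBNL2, a splicing regulator, showed the reverse order: its level with MST-312 minus that in untreated cells was 0.00 at 4 h, against 2.00 at 0 h. ITGAV, an integrin chain, TNFSF4, the ligand of OX40, and PANK1, which starts coenzyme A synthesis, had -1.81, -1.76 and -1.73. The calls of PANK1 and of NAA16, an acetyltransferase subunit with -1.87, rested on 1 probe each: the other probe of PANK1 gave -0.67 and those of NAA16 0.29 and 0.27, and none of these passed.

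Opposite release changes that both passed were found for 231 genes, 119 of which rose with MST-312 and fell in untreated cells and 112 of which did the reverse. FNDC5, a membrane protein with a fibronectin domain, read 7.89, 7.81 and 7.78 in MST-312 cells at 4 h and 6.96, 7.08 and 6.95 at 0 h, against 8.04, 7.54 and 7.80 in untreated cells at 4 h and 8.89, 8.95 and 8.96 at 0 h. The treatments met at 4 h after being separate at 0 h, with a rise of 0.83 with MST-312 and a fall of 1.14 in untreated cells. ATP2A3, a calcium pump, and GBP1, an interferon-induced GTPase, moved the same way, with interactions of 1.98 and 1.60. JMJD1C, a jumonji-domain protein, and CREB5, a factor of the CREB family, did the reverse, with -1.62 and -1.72.

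A shared response was also measured. Release changed 2112 genes in the same direction in both treatments, and for 446 of them the interaction passed. Among all 10246 genes it passed for 1152 (11.2%) in the positive and 1173 (11.4%) in the negative direction. For 811 the 95% interval of the interaction lay within 0.5 log2 units of 0, of which 489 rose and 322 fell. SMAD7, an inhibitor of TGF beta signalling, read 10.05, 10.06 and 10.07 in MST-312 cells at 4 h and 7.89, 7.99 and 7.88 at 0 h, against 9.38, 9.33 and 9.11 in untreated cells at 4 h and 7.23, 7.21 and 6.99 at 0 h. SMAD7 rose by 2.14 with MST-312 and 2.13 in untreated cells, with a difference of 0.78 between the treatments at both times. Its second probe changed by 2.33 with MST-312 and 1.87 in untreated cells, an interaction of 0.46 that did not pass. RIPOR2 fell by 1.68 with MST-312 and 1.65 in untreated cells. The intervals of the interaction were -0.32 to 0.33 for SMAD7 and -0.24 to 0.19 for RIPOR2.

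The same difference of differences at 8 h and at 24 h uses the same 0 h arrays, so the 3 sets of values share them. At 8 h 1029 interactions were positive (10%) and 1031 negative (10.1%), and at 24 h 1488 (14.5%) and 1580 (15.4%). IFIT1 had 2.46 at 4 h, 3.12 at 8 h and 2.58 at 24 h. EGR1 had 1.83, 1.29 and 2.62, and DUSP5 1.88, 0.78 and -0.18, in the same order of times. HSPA1B had -1.85, -2.23 and -1.81, whereas ACACA had -2.10, -1.16 and -0.64. ITGAV had -1.81 at 4 h and 0.70 at 8 h (adjusted p = 0.023), and LEFTY2, a ligand of the TGF beta family, had -1.94 at 4 h and 1.69 at 24 h (adjusted p = 6.5e-05). MYC had 0.28, 0.26 and 0.61, and at 24 h it passed (adjusted p = 0.0035).

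**Figure D5:**
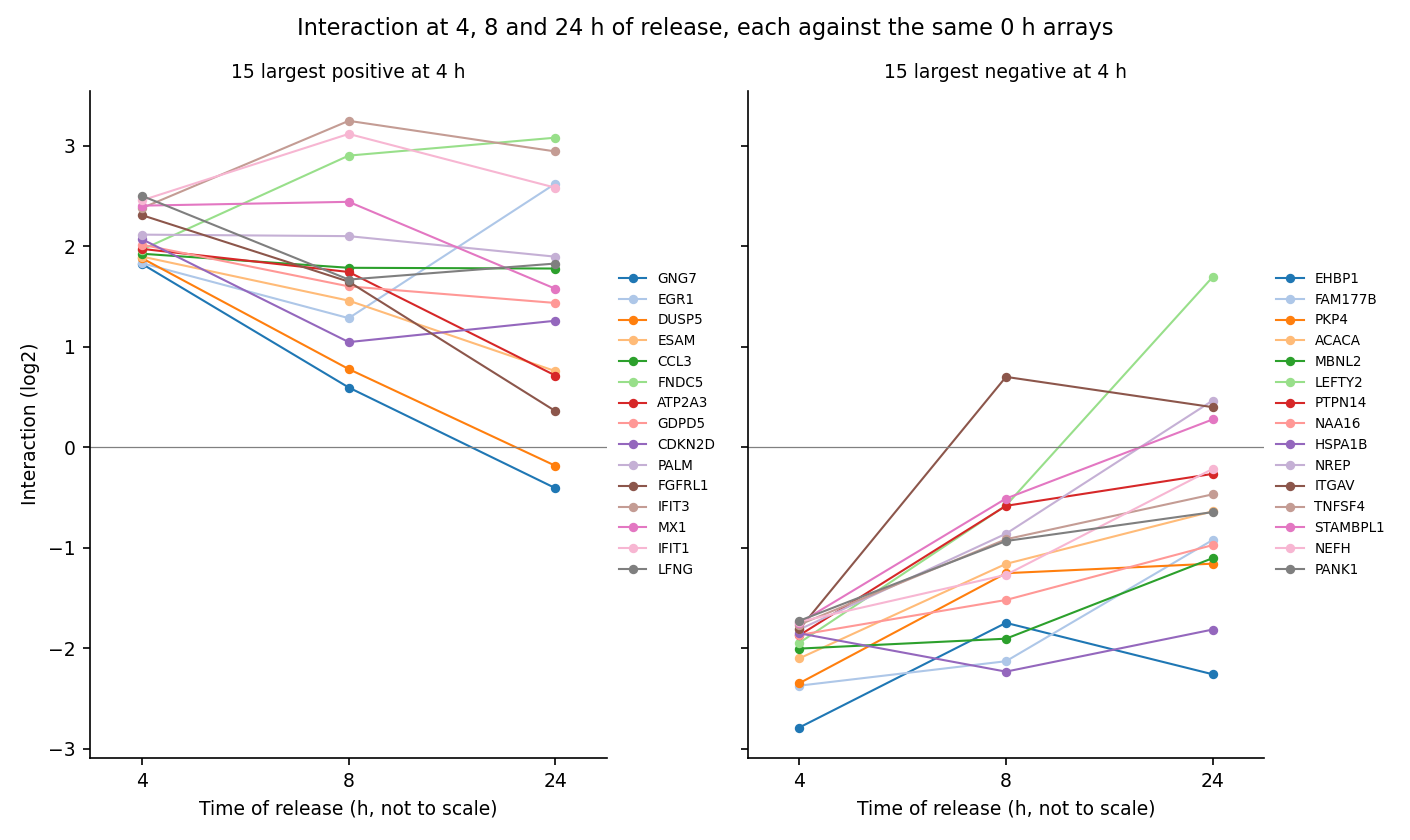
Interaction (log2) at 4, 8 and 24 h of release, 1 line per gene. Shown are the 15 genes with the largest positive (left) and the 15 with the largest negative (right) value at 4 h by the naming rule. Each time is set against the same 0 h arrays, and the genes were chosen by their value at 4 h. IFIT1 stays between 2.46 and 3.12, while ITGAV is at -1.81, 0.70 and 0.40.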

How the data were processed

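RNA was amplified to biotinylated cRNA for Illumina arrays, per the labels' protocols. For 47322 probes the deposited raw table holds 2 columns per array, an intensity and a detection p-value, per the file headers. The authors' deposited value table, processed intensity of the same arrays by a method the sources used here do not name, was an alternative. The raw values went through neqc of limma 3.58.1 in R 4.3.3: normexp correction, an offset of 16, quantile normalization and log2. A probe was kept when its detection p was under 0.05 on all 3 arrays of at least 1 of 8 groups (17882, of which 4364 had no single symbol and were left out), and the brightest stood for its gene. GEO's platform annotation gave the names. The 24 arrays of the series entered 1 limma fit of 8 group means, with 16 residual and 3.78 prior degrees of freedom. Precision is limited by the 3 arrays per group. All p-values of genes are limma's two-sided adjusted p over 10246 genes, and the threshold was 0.05. The fit was tested on simulated data.

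Genes named are MYC and TERT, the 15 largest positive and negative interactions (detected on at least 1 array of each group, sign kept without any 1 array, no unnamed loci), up to 4 passing members per list and up to 2 the other way of at least 1.5-fold, up to 6 with opposite release changes in each orientation, and 4 rises and 4 falls whose interaction interval lies within 0.5 of 0. The text gives a part of them. Promoter examples and list comparisons add others. The members and the 40 lists were chosen with earlier results of these data known. A bound (at least N-fold) sets the mean of the brighter group against a floor on each array of the dimmer one, the lowest detected signal or the probe's own signal if higher. Alternatives changed the background correction, scaling, filter, probe rule, arrays fitted, variance model, array weights and replicate block, and left out each array in turn.

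Arrays with the same replicate number and time deviated together in all 6 same-time pairs (correlations 0.129 to 0.303), and in 5 of 12 pairs of different times above 0.1 (-0.065 to 0.277). A block of replicate number within each time was therefore added after the data were seen. Chip and scan effects could not be examined, since the sources used here name no chip.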

Additional observations from a re-analysis of the deposited data

Results flagged for a closer look

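The interaction is itself a test of a difference between treatments, so every passing value is a difference between 2 groups' responses: 1152 genes in the positive and 1173 in the negative direction. Over all genes tested, passing or not, the interaction ran from -3.994 to 2.688. By the naming rule, the largest positive values were LFNG with 2.50, IFIT1 with 2.46, MX1 with 2.41 and IFIT3 with 2.38. Next were FGFRL1 with 2.31, PALM with 2.12, CDKN2D with 2.07 and GDPD5 with 2.02. They were followed by ATP2A3 with 1.98, FNDC5 with 1.97, CCL3 with 1.93, ESAM with 1.90, DUSP5 with 1.88, and EGR1 and GNG7 with 1.83 each.

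By the same naming rule, the largest negative values were EHBP1 with -2.79, FAM177B with -2.37, PKP4 with -2.35 and ACACA with -2.10. Next were MBNL2 with -2.002, LEFTY2 with -1.94, PTPN14 with -1.87, NAA16 with -1.87 and HSPA1B with -1.85. After these came NREP with -1.81, ITGAV with -1.81, TNFSF4 with -1.76, STAMBPL1 with -1.75, NEFH with -1.74 and PANK1 with -1.73. Among genes whose release changes passed in opposite directions, LTA had 1.61, GBP1 1.60 and ANKRD9 1.56, and CREB5 had -1.72, JMJD1C -1.62, TYW3 -1.55 and RPRD1A -1.49.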

How the results depend on the processing

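With median scaling the count of positive interactions was 530, against 1152, that of genes higher after release with MST-312 was 1230, and those of genes higher with MST-312 than untreated were 1430 at 4 h and 1888 at 0 h. Over all alternatives positive interactions numbered 530 to 1427 and negative ones 945 to 1484, and without any 1 array 947 to 1155 and 945 to 1116. The replicate block gave 1326 and 1385, the block within each time 1427 and 1484, and the block within each time ended the calls of PPAN and RPL37 (adjusted p = 0.0962) among the named genes.

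Values that changed sign belonged to genes whose interaction was near 0, except TNFRSF10B, which had -0.61 and, as the mean over its probes, 0.106. The authors' values and no background correction gave CPT1B 0.186, CTXN1 -0.177, HERC4 0.099 and RIPOR2 0.027, and an offset of 50 gave CPT1B 0.136, CTXN1 -0.051 and HERC4 0.004. Median scaling gave CTXN1 -0.096 and SMAD7 -0.175, cyclic loess CPT1B 0.127 and RIPOR2 0.129, the mean over probes HERC4 0.189, and array weights CPT1B 0.072. Without any 1 array CPT1B ranged from -0.169 to 0.103, HPDL from -0.195 to 0.065, RIPOR2 from -0.057 to 0.022 and SMAD7 from -0.076 to 0.081. The cause of these changes was not tested. Over all alternatives of the named genes, 3920 values kept direction and side of the threshold, 201 lost the threshold and 33 changed sign.

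Dim genes limit the result, since 1312 of the genes tested were undetected in at least 1 of the 4 groups, and passing probes without a single symbol had 187 positive and 186 negative interactions that are not named.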
